A study of Macaca mulatta with 12 samples.

Results

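Productive T cell receptor beta (TRB) clonotypes of middle CDR3 length to which the aligner assigned no diversity (D) segment were described in rhesus macaque blood. Members were the rows of the 8 post-infusion clone tables with an in-frame CDR3 free of stop codons, a CDR3 of 36 to 51 nucleotides (nt) and an empty field for D hits. They numbered 44646 of 183480 mid-length productive clonotypes, and of 218161 rows in all, and comprised 42001 distinct CDR3 nucleotide sequences. The remaining 138834 mid-length productive clonotypes carried a D hit and served as the comparison class. Of the 8110 sequences of either class found in 2 or more libraries, 16 had a D hit in 1 library and none in another.

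The libraries came from frozen peripheral blood cells of Amazo, Nebula and Rocket, macaques given 2 infusions of apoptotic donor leukocytes (ADL), on days -7 and +1 by the series' description, although the paper also places the second on day 0. The 8 post-infusion libraries were drawn on day -5 and day -4, 2 and 3 days after the first infusion (3 libraries each), on day 0 (Nebula, 7 days after the first infusion) and on day +3 (Amazo, labelled as 2 days after the second). According to the study's methods these animals received transient immunosuppression around the infusions and no transplant, so infusion and drugs were given together at all of these days. A further 4 baseline libraries were labelled with other animal identifiers and carried 63 to 74 counts each, against 42695 to 556954 counts in the post-infusion libraries. Across these clonotypes the day -5 and day +3 libraries of Amazo held the repertoire of the Rocket libraries, and the day -4 library of Amazo stood apart (Morisita-Horn overlap, where 1 is identity, of 0.596 to 0.990 in the 9 pairs that shared a repertoire and at most 0.00307 in the other 19). Comparisons of the 2 classes therefore used the day -4 libraries, of which no pair shared a repertoire. Whether samples or labels were exchanged was not tested.

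The TRB chain is assembled by joining a variable (V), a D and a joining (J) gene, with exonuclease trimming of the ends and addition of untemplated N bases at both joins. The resulting CDR3 is the loop that contacts the antigenic peptide, and the guanine-rich D genes are a usual source of its central glycines. A CDR3 without a D hit need not have lacked a D gene: trimming can leave too few D bases for an aligner to recognise.

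The 9 sequences below were the 3 largest clonotypes without a D hit in each day -4 library, shown as the most abundant examples of the class. Each is the CDR3 from 5′ to 3′, with the bases assigned to neither V nor J in capitals.
Amazo 1 (TRBV2-2, TRBJ2-5): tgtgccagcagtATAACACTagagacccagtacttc
Amazo 2 (TRBV6-3, TRBJ1-2): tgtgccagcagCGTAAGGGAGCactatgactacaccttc
Amazo 3 (TRBV7-6, TRBJ2-3): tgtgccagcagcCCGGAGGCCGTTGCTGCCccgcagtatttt
Nebula 1 (TRBV7-10, TRBJ1-3): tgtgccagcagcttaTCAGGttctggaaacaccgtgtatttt
Nebula 2 (TRBV12-3, TRBJ1-2): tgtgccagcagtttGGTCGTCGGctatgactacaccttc
Nebula 3 (TRBV7-6, TRBJ2-7): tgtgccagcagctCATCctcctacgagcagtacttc
Rocket 1 (TRBV9, TRBJ1-1): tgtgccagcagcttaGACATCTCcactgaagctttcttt
Rocket 2 (TRBV19, TRBJ2-6): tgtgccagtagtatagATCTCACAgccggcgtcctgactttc
Rocket 3 (TRBV4-2, TRBJ1-4): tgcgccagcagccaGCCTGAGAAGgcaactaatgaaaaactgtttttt
These gaps ranged from 4 bases (Nebula 3) to 18 bases (Amazo 3), and none held a run that the aligner placed on a D gene. Amazo 1 and Nebula 2 had V hits to 2 V genes each, so their V gene was uncertain.

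For comparison, the largest clonotype with a D hit in each day -4 library is given with the bases aligned to the D gene in capitals.
Amazo D (TRBV5-1, TRBD1, TRBJ1-4): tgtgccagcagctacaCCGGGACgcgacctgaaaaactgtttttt
Nebula D (TRBV6-3, TRBD1, TRBJ1-1): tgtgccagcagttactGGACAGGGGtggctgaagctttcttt
Rocket D (TRBV29-1, TRBD2, TRBJ2-1): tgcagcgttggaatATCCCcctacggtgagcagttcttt
Their D hits scored 35, 45 and 25 and covered 7, 9 and 5 bases. A score of 25, reached by 5 matching bases, was the lowest in every library and applied to 20.1% to 22.8% of D hits.

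The D references implied by the deposited alignments are shown because they set what could count as a D hit. Each began with the reverse complement of the gene (lower case) before the gene itself (capitals), and continued into a further reverse complement of which the first 8 (TRBD1) or 9 (TRBD2) bases were seen in alignments.
TRBD1: cccccctgtcccGGGACAGGGGGG
TRBD2: tccccccagtcccGGGACTGGGGGGA
Of the D-hit clonotypes, 10.9% to 12.7% per library had under 5 aligned bases inside the gene proper, and 2.60% to 3.36% had none there. Rocket D belonged to the former. Counted as lacking a D gene, these clonotypes raised the share without D from 23.1% to 25.6% in the deposited calls to 31.5% to 34.96%.

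The share of mid-length productive clonotypes without a D hit lay within a narrow range in all 8 post-infusion libraries. It was 23.6%, 25.5% and 23.2% on day -5 in Amazo, Nebula and Rocket, and 25.1%, 25.6% and 23.1% on day -4 in the same order. Nebula reached 25.5% on day 0, and Amazo 23.5% on day +3. The 3 Nebula libraries and the day -4 Amazo library were the 4 highest, and the libraries that shared the Rocket repertoire were the 4 lowest. Weighted by counts, the class made up 20.6% to 24.7% of mid-length productive counts (median 21.8%).

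**Figure D1:**
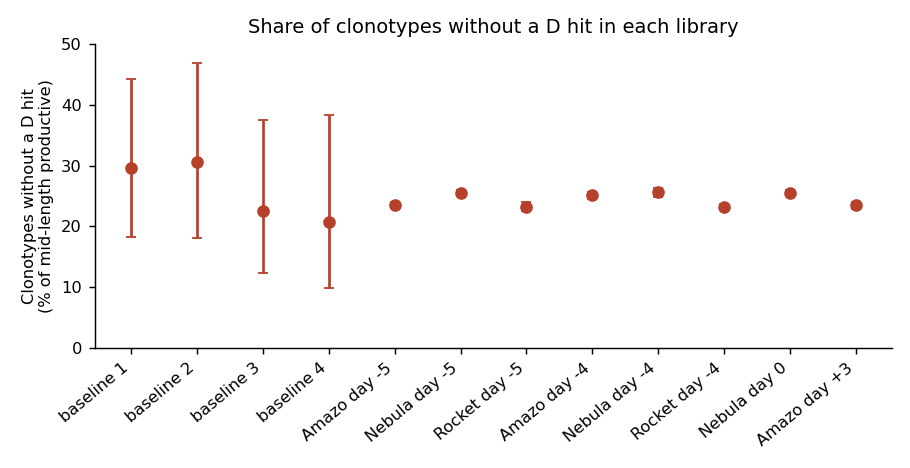
Share of mid-length productive clonotypes without a D hit (%, y axis) in each of the 12 libraries (x axis), with 95% Wilson intervals that cover counting error only. The post-infusion libraries sit between 23.1% and 25.6%, and the intervals of the 4 baseline libraries, with 29 to 44 such clonotypes each, enclose all of them.

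Day -5 and day -4 were compared in 3 pairs, too few to reach a p of 0.05. The mean share was 24.1% ± 1.21 (SD, n = 3) on day -5 and 24.6% ± 1.30 (SD, n = 3) on day -4. The paired differences were 1.54 percentage points in Amazo, 0.0833 in Nebula and -0.126 in Rocket, with a mean of 0.50 (exact two-sided sign-flip permutation test, p = 0.75, n = 3 pairs, where the smallest possible p is 0.25). The Amazo pair compared different repertoires, and without it the mean was -0.0214. Weighted by counts, day -4 minus day -5 averaged -0.171 points (p = 0.75, exact sign-flip permutation test, n = 3 pairs), and without the Nebula pair, whose day -4 library was the shallowest, it was 0.321.

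At baseline, 13 of 44, 11 of 36, 9 of 40 and 6 of 29 clonotypes had no D hit, for a mean of 25.8% ± 4.95 (SD, n = 4). Day -5 was 1.73 percentage points lower (difference -1.73, exact two-sided permutation test, p = 0.571, n = 4 and 3) and day -4 was 1.23 lower (difference -1.23, exact permutation test, p = 0.743, n = 4 and 3), where the smallest possible p is 0.05714. The Wilson intervals of the baseline libraries spanned from 9.85% to 46.9%, so a difference of a few points was not detectable at this depth. Leaving out 1 library moved the day -5 difference between -0.153 (without baseline library 2) and -3.44 (without baseline library 4), and at CDR3s of 39 to 48 nt it was 0.219. Without baseline library 1 or 2 the day -4 difference was 0.00967 or 0.346. Among clonotypes with 2 or more counts the differences were -9.93 points on day -5 and -9.20 on day -4 (exact permutation tests, p = 0.05714 each, n = 4 and 3). At baseline this cutoff kept 32.0% to 47.8% of D-hit clonotypes and 38.5% to 83.3% of members. On days -5 and -4 it kept 57.6% to 90.8% and 57.7% to 90.4%. With only 63 to 74 counts in each baseline library, the cutoff also marked a far higher abundance there. These differences therefore compare unlike parts of the libraries, and no change is read from them.

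Members were shorter than D-hit clonotypes in every library, as a description of the sequences on which the D hit was called. Their mean CDR3 length was 41.6 to 41.7 nt, against 43.7 to 44.0 nt with a D hit, a difference of 2.11 to 2.31 nt. CDR3s of 36 nt made up 16.1% of members and 5.25% of D-hit clonotypes (medians over the 8 libraries), and CDR3s of 51 nt 2.68% and 8.22%. The shares without a D hit fell at each step of length, from 49.5% at 36 nt over 35.3% at 39 nt, 25.2% at 42 nt, 18.3% at 45 nt and 13.9% at 48 nt to 9.90% at 51 nt. Just outside the window the medians were 65.1% at 33 nt and 6.09% at 54 nt.

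The stretch between the last V base and the first J base, the gap, differed more than the length did. Its median was 9 to 10 bases in members and 14 bases in D-hit clonotypes. Less had been trimmed from the neighbouring genes of members: on average 1.93 to 2.22 bases from V, against 2.79 to 3.07, and 2.74 to 3.13 bases from J, against 4.12 to 4.45. Gaps of 4 bases or fewer, too short for the lowest D score, occurred in 10.2% to 12.1% of members (4837 clonotypes) and in 0 of the D-hit class. In 291 members V and J overlapped. From 5 bases on, the median share without a D hit fell from 81.9% to 30.9% at 10 bases and 10.4% at 15 bases. Gaps over 12 bases, in which a D gene would have had room for most of its bases, were still present in 19.1% to 24.4% of members, and in 61.7% to 65.1% of D-hit clonotypes.

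**Figure D2:**
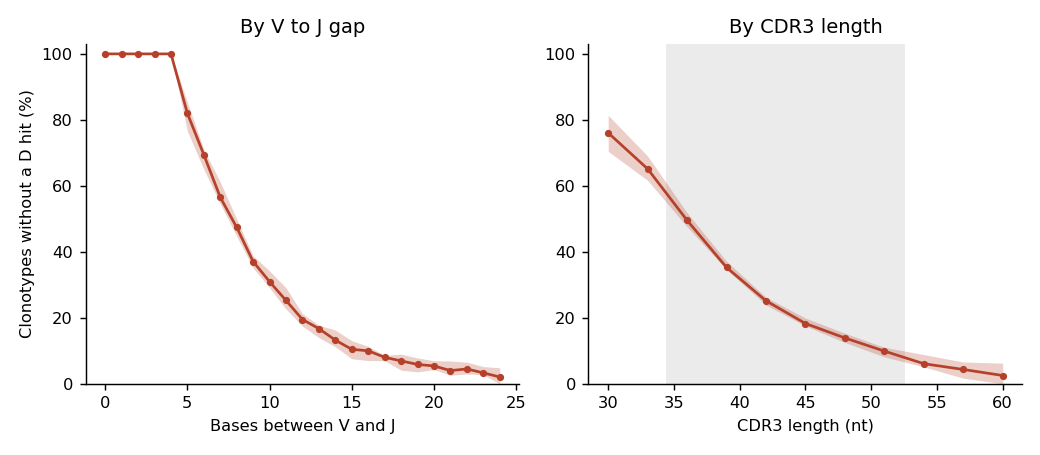
Share of productive clonotypes without a D hit (%, y axis) against the number of bases between V and J (left, CDR3s of 36 to 51 nt) and against CDR3 length in nt (right, grey marks the window of 36 to 51 nt). Lines are medians over the 8 post-infusion libraries and bands their lowest and highest values, with all clonotypes lacking a D hit up to 4 bases and 19.5% of them at 12 bases.

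The bases of the gap differed between the classes in the direction fixed by the D call. Guanine made up 34.8% of gap bases in members and 46.6% in D-hit clonotypes, and thymine 19.1% and 12.3% (medians). The motif GGG, searched on the coding strand, lay in the gap of 25.3% to 27.6% of members and of 85.7% to 88.1% of D-hit clonotypes. GGGAC, part of both D genes, and ACAGGG, part of TRBD1, occurred in none of the members' gaps, and in 24.4% and 22.4% of D-hit gaps. CTAGCG, a string of the human TRBD2 gene that the deposited reference lacked, lay in 0.0665% of members' gaps and 0.0362% of D-hit gaps.

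The residues encoded across the gap followed. Members had 3.69 to 3.89 junction residues per clonotype, counted where at least 1 base of the codon lay in the gap, and D-hit clonotypes 5.24 to 5.40. Glycine, the flexible residue encoded by the D genes' G runs, made up 15.7% to 16.5% of members' junction residues and 27.8% to 28.8% of those with a D hit. Serine was 10.6% against 7.48% (medians), valine 5.77% against 3.63%, glutamate 5.52% against 3.61%, leucine 7.01% against 5.48% and phenylalanine 3.47% against 1.86%. Threonine (5.86% against 7.16%), glutamine (3.19% against 4.41%) and tryptophan (1.44% against 2.29%) were lower in members. The ranges of the 2 classes over the 8 libraries, several of which shared a repertoire, did not overlap for any of these residues. Nor did they for any other residue except arginine, aspartate and cysteine. These are descriptions without a test, since the D hit was called on the same bases.

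**Figure D3:**
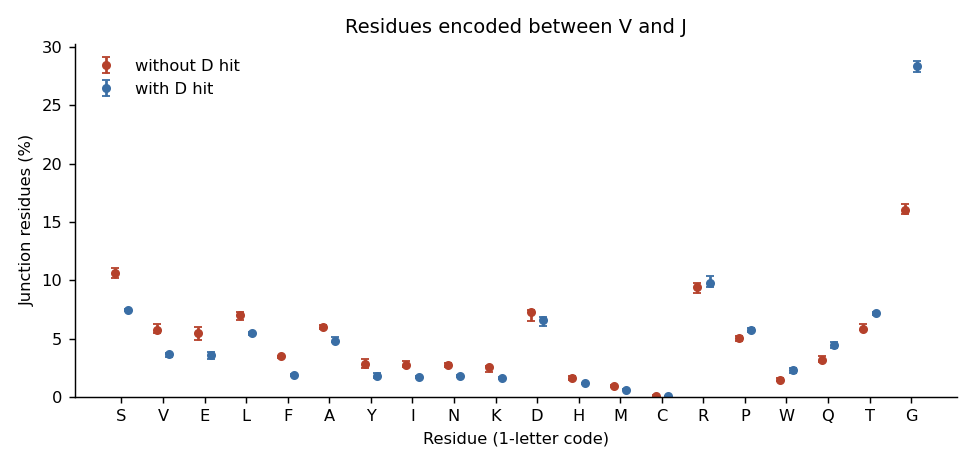
Share of each amino acid (1-letter code, x axis) among residues encoded between V and J (%, y axis), in clonotypes without and with a D hit. Points are medians over the 8 post-infusion libraries and bars their lowest and highest values, with glycine at 16.02% without and 28.4% with a D hit.

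J gene use was compared on numbers of clonotypes, each counted once, in the 3 day -4 libraries split by class. The D hit was called on the bases that the V and J alignments left, so J use was not independent of the class. The fits therefore describe the classes as called. The common dispersion came out at 9.77e-05, the lowest value that the fit could return, and is not a measured spread between libraries. The SE and p therefore mainly reflect counting of clonotypes. Of 13 J genes, 5 were used more by members (38.5% of those tested) and 5 less (38.5%) at an adjusted p of 0.05 (edgeR quasi-likelihood test with library as block). TRBJ2-6 stood first. It took 7.498% of members and 2.77% of D-hit clonotypes in Amazo, 5.38% and 2.20% in Nebula, and 6.47% and 2.41% in Rocket. Its use was higher in members by 1.40 on the log2 scale (SE 0.063, edgeR adjusted p = 2.34e-17). Over the 8 libraries 41.8% to 47.6% of mid-length TRBJ2-6 clonotypes lacked a D hit, the highest share of any J gene, and TRBJ2-6 had the shortest mean gap (9.81 bases, median of library means).

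TRBJ1-3 was the other J gene with a clear excess. It took 5.65%, 6.65% and 5.83% of members and 4.12%, 4.79% and 4.05% of D-hit clonotypes in Amazo, Nebula and Rocket (log2 fold change 0.48, SE 0.058, edgeR adjusted p = 3.90e-08). TRBJ2-2 (0.17), TRBJ1-5 (0.16) and TRBJ1-1 (0.13) rose by less, with edgeR adjusted p of 8.80e-04, 0.00307 and 0.0282. None of these 3 was called without Amazo (0.13, 0.18 and 0.12, edgeR adjusted p = 0.245, 0.148 and 0.382). TRBJ1-6 (0.13), TRBJ1-2 (0.05) and TRBJ2-4 (-0.06) did not pass, with edgeR adjusted p of 0.0829, 0.266 and 0.213.

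The J genes used less by members were TRBJ2-5, TRBJ2-1, TRBJ2-7, TRBJ1-4 and TRBJ2-3. TRBJ2-5 took 6.91%, 6.75% and 6.61% of members and 9.03%, 8.60% and 8.93% of D-hit clonotypes (log2 fold change -0.40, SE 0.045, edgeR adjusted p = 1.30e-08). Its classes did not overlap, which was also true of TRBJ2-6, TRBJ1-3 and TRBJ2-7 among the J genes. TRBJ2-1 (-0.27), TRBJ2-7 (-0.25), TRBJ1-4 (-0.23) and TRBJ2-3 (-0.18) followed, with edgeR adjusted p of at most 1.29e-04. Without Rocket TRBJ2-3 (-0.03, edgeR adjusted p = 0.661) and TRBJ2-7 (-0.13, edgeR adjusted p = 0.0531) were not called.

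The J calls differed between fits, and whether the gap accounts for them was not tested. Among clonotypes of both classes with gaps of 6 to 12 bases, a smaller set of clonotypes, 1 of 13 J genes passed (TRBJ2-6, log2 fold change 0.62, edgeR adjusted p = 0.0196). TRBJ1-3 was then at 0.10 (adjusted p = 0.403) and TRBJ2-5 at -0.15 (adjusted p = 0.246), while TRBJ2-1 turned to 0.40 without passing. When D-hit clonotypes were weighted to the members' CDR3 lengths, 10 of 13 still passed, of which 8 were among the calls above, and TRBJ1-1 turned to -0.14 (adjusted p = 0.0410). Summed by counts in place of clonotypes, 0 of 13 passed, with 2 at an unadjusted p under 0.05 and TRBJ2-6 at 2.21 (edgeR adjusted p = 0.111). In the fit by DESeq2 6 of 13 passed, and without the library block 4 (TRBJ2-6, TRBJ1-3, TRBJ2-5 and TRBJ2-7). With D hits of under 5 bases in the gene proper counted as none, 5 J genes were higher and 2 lower, and 6 of the 10 calls remained.

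**Figure D4:**
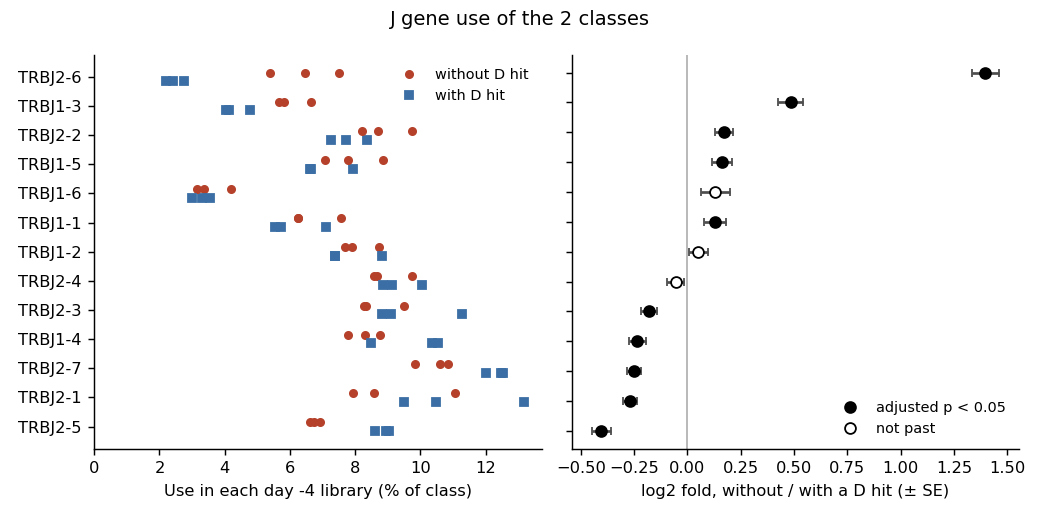
Left, use of each J gene (% of the clonotypes of a class, x axis) in the 3 day -4 libraries, without and with a D hit. Right, fitted log2 fold change with its standard error, filled where the edgeR adjusted p was under 0.05, with TRBJ2-6 at 1.40 and TRBJ2-5 at -0.40.

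The gap of TRBJ2-1 clonotypes was not measured alike in all libraries. Its mean was the longest of the J genes (15.4 bases, median of library means). The aligner's reference for this gene and the commonest substituted version in the alignments differ within the following 9 bases, in which capitals mark the whole window compared.
TRBJ2-1 reference version: AATGAGCAG
TRBJ2-1 substituted version: GGTGAGCAG
The substituted version was present in 93.2% of TRBJ2-1 clonotypes of the day -4 Amazo library and in 93.5% to 94.5% of those of Nebula, where the reference version was found in at most 4 clonotypes per library. In the Rocket libraries and the other Amazo libraries both were present, with 30.5% to 33.8% substituted, while the reference version was in 1937 of 3849 (Amazo, day -5), 1402 of 2689 (Amazo, day +3), 1948 of 3888 (Rocket, day -4) and 866 of 1732 (Rocket, day -5) TRBJ2-1 clonotypes. With the substituted version the J alignment began 9 bases into the gene in 84.3% to 87.2% of clonotypes, against 0% with the reference version. The 0% was set by the choice of these clonotypes, which match the aligner's reference within those bases.

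The gap was correspondingly longer with the substituted version, 16.2 bases against 12.8 to 13.0 in the 4 libraries that held both, at a mean CDR3 length of 43.4 to 43.7 and 43.9 to 44.1 nt. The share without a D hit was 18.2% and 20.2% with the substituted and the reference version in Amazo on day -5, 18.9% and 20.5% in Amazo on day +3, 20.2% and 21.5% in Rocket on day -4, and 17.4% and 18.4% in Rocket on day -5. It was lower with the substituted version in each of the 4 libraries, which share 1 repertoire. Where TRBJ2-1 clonotypes are shown with the gap in capitals, as in the shared sequences further on, 9 J bases had been removed by this alignment.

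Grouped by cluster, J genes of the first cluster lie upstream of TRBD2, so that deletional joining of a TRBJ1 gene to TRBD2 is not a usual outcome. The share without a D hit was 25.1% to 26.96% among TRBJ1 clonotypes and 22.0% to 25.0% among TRBJ2 clonotypes, with mean gaps of 12.2 to 12.6 and 13.1 to 13.5 bases. Within gaps of 6 to 12 bases the shares were 33.3% to 36.2% and 33.4% to 38.0%. TRBJ1 was higher in 8 of 8 libraries over all gaps, and TRBJ2 in 7 of 8 at gaps of 6 to 12 bases. Several of the 8 libraries shared a repertoire, so these counts are not of independent observations. The TRBJ2 clonotypes include those with the substituted version described above, whose gap was measured as longer. Mean gaps and the window of 6 to 12 bases are therefore not measured alike in both clusters. Whether this accounts for the opposite order within the window was not tested.

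V gene use was compared in the same way and with the same limits, at a fitted common dispersion of 4.67e-04. Of 54 V genes, 8 were used more by members (14.8% of those tested) and 5 less (9.26%) by the same test, and 12 of the 13 moved the same way in each day -4 library, the exception being TRBV19. TRBV14 took 2.01%, 1.69% and 1.88% of members and 1.55%, 1.15% and 1.20% of D-hit clonotypes in Amazo, Nebula and Rocket. TRBV14 was higher in members by 0.55 on the log2 scale (SE 0.11, edgeR adjusted p = 2.57e-05). Its classes did not overlap, nor did those of TRBV20-1, TRBV3-2 and TRBV5-1 among the called V genes. TRBV23-1, the most used of the called V genes at 8.61%, 10.6% and 6.99% of members, was higher by 0.25 (SE 0.061, edgeR adjusted p = 0.00139).

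TRBV4-2 (0.31), TRBV3-2 (0.35), TRBV10-2 (0.32), TRBV3-1 (0.28) and TRBV6-1 (0.20) were also used more by members, with edgeR adjusted p between 9.43e-04 and 0.0307. Of these, TRBV3-2 was often not told apart from other V genes: 97.9%, 73.2% and 20.4% of its clonotypes in Amazo, Nebula and Rocket had hits to more than 1 V gene. The same held for 13.6%, 46.8% and 26.1% of TRBV3-1 clonotypes. Among clonotypes with a single V hit none of these 5 V genes was called. Libraries differed more than classes for TRBV6-1, which took 8.24% of members in Amazo and 2.13% in Rocket. TRBV20-1 showed the largest deficit. It took 3.49%, 3.36% and 3.06% of members and 5.21%, 4.28% and 4.09% of D-hit clonotypes (log2 fold change -0.43, SE 0.077, edgeR adjusted p = 8.08e-06). TRBV9 (-0.28), TRBV12-2 (-0.24), TRBV27 (-0.23) and TRBV5-1 (-0.21) were also used less, with edgeR adjusted p between 0.00827 and 0.0154. More than 1 V hit occurred in 37.3%, 53.6% and 73.0% of TRBV12-2 clonotypes, and with a single V hit TRBV12-2 and TRBV5-1 were not called.

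The V calls depended on the fit. With the library block removed 0 V genes passed (1 at an unadjusted p under 0.05), and DESeq2 called TRBV20-1 alone (7 of 54 at an unadjusted p under 0.05). Without Rocket 2 V genes passed, without Amazo 4, and without Nebula 10. Without Rocket TRBV14 was at 0.43 (edgeR adjusted p = 0.159), and TRBV23-1 and TRBV6-1 were not called when any 1 of the 3 libraries was left out. All 13 kept their direction in these fits. Without TMM scaling 5 were higher and 6 lower, against 8 and 5. Within gaps of 6 to 12 bases 3 passed, of which 2 were among the 13. With D hits of under 5 bases in the gene proper counted as none, 6 passed, all among the 13. With a single V hit 5 passed, all among the 13. Reweighted to the members' CDR3 lengths 15 passed (8 shared with the 13), and over all 8 libraries 17 (9 shared), 7 higher and 10 lower. By counts in place of clonotypes 0 passed, with 2 at an unadjusted p under 0.05.

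**Figure D5:**
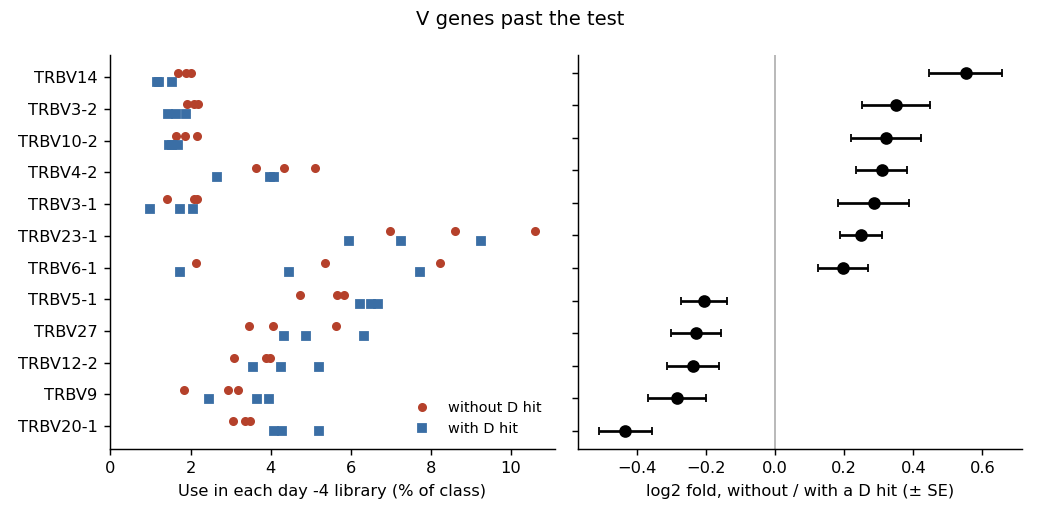
Left, use of the 12 named V genes (% of the clonotypes of a class, x axis) in the 3 day -4 libraries, without and with a D hit. Right, fitted log2 fold change with its standard error (edgeR, library as block), from -0.43 for TRBV20-1 to 0.55 for TRBV14.

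Across time, V gene use of members was not found to change. Between day -5 and day -4 0 of 49 V genes passed (0%, edgeR quasi-likelihood test with animal name as block), with 1 at an unadjusted p under 0.05 and 0 calls by DESeq2. TRBV6-1 passed when the Nebula or the Rocket pair was left out, in which case Amazo, with its different repertoires, was 1 of 2 pairs.

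The abundance of members was close to that of D-hit clonotypes. The median number of counts per clonotype ranged from 2 to 14 in members and from 2 to 13 in D-hit clonotypes over the 8 libraries. On day -4 the share with 2 or more counts was higher in members by 0.421 percentage points in Amazo, 0.0938 in Nebula and 0.599 in Rocket (mean 0.371, exact two-sided sign-flip permutation test, p = 0.25, n = 3, the smallest possible). Over all 8 libraries the mean difference was -0.132, with 4 of 8 libraries higher in members. No p is given for it, since the 8 libraries come from 3 animals and 3 repertoires. Clonotypes of at least 0.1% of a library's counts numbered 52 without and 183 with a D hit over the 8 libraries, and members were 10.0% to 29.6% of them (median 22.3%).

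The 10 largest members held 37.1% and 36.8% of the counts of the class in Amazo on days -5 and +3, and 44.6% and 53.2% in Rocket on days -4 and -5. The 10 largest D-hit clonotypes held 29.4%, 33.5%, 34.7% and 42.8% of theirs in the same order. In the other 4 libraries these shares were 4.37% to 10.7% in members and 6.49% to 23.8% with a D hit. Rocket 1 (TRBV9, TRBJ1-1) took 5.30% of all counts in Rocket on day -5 and 4.80% on day -4 (12455 of 259662 counts, 95% Wilson interval 4.72% to 4.88%). It took 3.44% in Amazo on day -5 and 3.34% on day +3, and was the first-ranked member in all 4 libraries. Rocket 2 (TRBV19, TRBJ2-6) took 1.58%, 1.31%, 1.06% and 1.24% in the same order and Rocket 3 (TRBV4-2, TRBJ1-4) 1.18%, 0.945%, 0.906% and 0.721%. Rocket 1 was also seen at 8 counts in Amazo on day -4 and at 7 counts each in Nebula on day -5 and day 0, that is at most 0.00271%.

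In Nebula and in the day -4 Amazo library no member reached 1%. Nebula 1 (TRBV7-10, TRBJ1-3) took 0.239%, 0.426% and 0.169% on days -5, -4 and 0, and Nebula 2 (TRBV12-3, TRBJ1-2) 0.347%, 0.415% and 0.232%. Nebula 3 was at 0.0596%, 0.0867% and 0.0453%, the middle value from 37 counts. Amazo 1 (TRBV2-2, TRBJ2-5) took 0.680% on day -4 and 0.0144% on day -5 (50 counts). It had 0 of 303525 counts on day +3. None of the 9 was seen at baseline, where 0 of 63 counts, the shallowest library, allowed a share of up to 5.75% (upper Wilson bound). In these bulk RNA libraries more cells of a clone and more TRB RNA per cell cannot be told apart. The tables do not show whether counts are reads or barcode-collapsed molecules, and intervals and the following tests cover counting error only.

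Large clonotypes were followed between libraries of 1 name with Fisher's exact test, and called at an adjusted p of 0.05 and a 2-fold change. With 1 library per name and day the test compares libraries, not time points. Between day -5 and day -4 in Nebula 0 of 3 members of at least 0.1% were called, where 9.09% of all such clonotypes were, and in Rocket 0 of 10, where 2.33% were. At no minimum fold 3 of 3 and 7 of 10 passed, where 68.2% and 81.4% of all such clonotypes did. Between day -5 and day 0 in Nebula 1 of 4 was called (background 9.52%): a TRBV24-1, TRBJ2-2 clonotype fell from 0.112% to 0.0531%. Between day -5 and day +3 in Amazo 2 of 9 were called (background 12.2%). TRBV4-2 with TRBJ1-6 fell from 0.631% to 0.279%, and TRBV5-6 with TRBJ2-6 from 0.122% to 0.0389%. In Amazo between day -5 and day -4, 17 of 17 were called (background 100%), 8 higher and 9 lower on day -4. The repertoires of these 2 libraries differed (Morisita-Horn overlap 0.00307), but not every clonotype was confined to 1 of them. Of the 17, 2 had no counts on day -5 and 5 had none on day -4. Amazo 1, 2 and 3 were seen on day -5 at 50, 12 and 24 counts, and on day +3 at 0. The source of these low counts was not tested.

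Sequences found in more than 1 of the 3 day -4 libraries were rare. By nucleotides, 31 of 16481 distinct members (0.188%) were in 2 libraries and 0 in all 3, against 64 and 1 of 51345 with a D hit. The share of members also found in another day -4 library was 0.369% in Amazo, 0.473% in Nebula and 0.353% in Rocket, against 0.334%, 0.197% and 0.238% of D-hit clonotypes. The mean difference was 0.142 percentage points (exact two-sided sign-flip permutation test, p = 0.25, n = 3, the smallest possible), and -0.0269 without Nebula. By amino acids the shares were 3.88%, 4.55% and 3.502% against 2.62%, 2.92% and 2.15%, higher in members in 3 of 3 libraries (mean 1.41 points, exact sign-flip permutation test, p = 0.25, n = 3). Without Amazo, Nebula or Rocket this mean was 1.06, 0.809 or 0.617, and among clonotypes with exactly 1 count it was -0.0282. At gaps of 6 to 12 bases the direction was opposite, with -0.189 points by nucleotides and -2.04 points by amino acids (exact sign-flip permutation tests, p = 0.25 each, n = 3).

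The members found in 2 day -4 libraries had shorter gaps than the rest, as a description without a test. Of the 31, 18 (58.1%) had a gap of 4 bases or fewer, against 10.9% of the 16450 members found once, and their median gap was 3 against 9 bases. TRBJ2-6 was the J gene of 6 of the 31 (19.4%, against 6.49%), and TRBV23-1 the V gene of 7 (22.6%, against 8.37%). The 6 with the highest level in the lower of both libraries are shown, chosen after their values were seen, with the gap in capitals.
Shared 1 (TRBV2-3, TRBJ1-1): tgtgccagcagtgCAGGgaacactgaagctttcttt
Shared 2 (TRBV3-4, TRBJ2-1): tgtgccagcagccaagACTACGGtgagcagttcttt
Shared 3 (TRBV27, TRBJ2-6): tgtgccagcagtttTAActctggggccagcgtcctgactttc
Shared 4 (TRBV23-1, TRBJ2-6): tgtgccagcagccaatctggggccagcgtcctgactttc
Shared 5 (TRBV11-3, TRBJ2-1): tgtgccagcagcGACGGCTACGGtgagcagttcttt
Shared 6 (TRBV7-4, TRBJ2-2): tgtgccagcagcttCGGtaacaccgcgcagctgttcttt
In shared 4 V and J overlapped by 1 base, leaving no gap base. Shared 1 had 50 counts in Amazo and 16 in Rocket on day -4, and shared 4 had 15 in Amazo and 1 in Nebula. The other 4 also rested on few counts in Nebula on day -4: 2 for shared 2, 3 for shared 3, and 1 each for shared 5 and shared 6. In that shallow library 1 count was 0.00234%, which raised their level in this choice. Of the 31, 5 made up at least 0.1% of 1 of the libraries, among them Rocket 1, Rocket 3 and Nebula 1, which were seen at 8, 2 and 1 counts in Amazo on day -4. Carry-over between libraries was not tested. Without clonotypes of at least 0.1% the difference by nucleotides was 0.143 points.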

How the data were processed

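TRB amplicons made from blood cell RNA of 12 libraries were sequenced on a MiSeq. The authors trimmed reads with Trimmomatic and called clones with MiXCR at default settings on known rhesus TRB genes; versions are not given in the sources used here. The deposited tables give per clone a count, a clone fraction and a quality score per CDR3. The methods state a filter at a clone fraction of 0.5% that the post-infusion tables do not show, and no barcode column was present. The methods describe a barcode on each RNA molecule and collapse of sequences that carry the same one. Whether the deposited counts are collapsed molecules or reads is not shown by the tables. No column of other samples was used.

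The members, gene lists and tests were chosen with earlier results of these data known. Classes came from the D-hit field. Gaps came from the reference points in the tables, which were missing for at most 2 clonotypes per library. V and J use was fitted in edgeR 4.0.16 (R 4.3.3, TMM scaling, Benjamini-Hochberg adjustment, genes with at least 10 clonotypes in at least 3 columns), with DESeq2 1.42.0 as an alternative. The edgeR fit was also tried on simulated V gene numbers. Those had larger changes than any V gene called here and the same V use in all libraries, so they do not bear on these calls. Named V genes were those past the test, moved alike in 3 of 3 day -4 libraries and at 0.5% use or more, up to 8 per direction, while all J genes were named. Exact permutation and Fisher's tests used SciPy 1.17.1. Replicates are libraries, with 1 per animal and day. Deviations of V use from the day means correlated between libraries of the same name at 0.776 (Nebula), 0.833 (Rocket) and -0.104 (Amazo) over 49 V genes, and the animal name was kept as the pair because the labels give it. Library totals set the precision: 1 count was 0.000180% to 0.00234% of a post-infusion library.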

Additional observations from a re-analysis of the deposited data

Results flagged for a closer look

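Of 5 quantities compared over the 4 baseline libraries, the mean CDR3 length of clonotypes without a D hit had 1 library far from the rest. It was 40.4, 40.4 and 40.5 nt in baseline libraries 1, 2 and 4 and 42.0 nt in baseline library 3, and the gap to its nearest neighbour was 0.917 of the whole range, past Dixon's 95% critical value. Each mean rests on 6 to 13 clonotypes, and chance flags about 1 in 20 such groups. The cause was not tested.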

How the results depend on the processing

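The 3-pair and baseline comparisons could not reach an adjusted or raw p of 0.05, so only directions bear on them. The day -4 minus day -5 differences were 0.50 points by clonotypes and -0.171 by counts. Dropping the replicate block (animal name) could not move them, since the mean paired difference equals the difference of the day means. Leaving out 1 pair gave -0.0214 to 0.813 and -0.642 to 0.321. At CDR3s of 39 to 48 nt the day -5 and day -4 differences from baseline turned to 0.219 and 0.590 points, and leaving out 1 library gave -3.44 to -0.153 and -2.94 to 0.346. Among clonotypes with exactly 1 count the sharing differences turned to -0.0358 (nucleotides) and -0.0282 (amino acids) points, at gaps of 6 to 12 bases to -0.189 and -2.04, and leaving out 1 library gave -0.0269 to 0.177 and 0.617 to 1.06. The share with 2 or more counts turned to -0.132 over 8 libraries.

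The 13 V calls became 0 with no replicate block, 1 in DESeq2, 5 without a low-count filter, 7 at 2 or more counts and 0 by counts. They became 5 with a single V hit, 3 at gaps of 6 to 12 bases, and 6 with D hits of under 5 bases in the gene proper counted as none. They became 15 reweighted to the members' lengths, 17 over 8 libraries, 10 at 39 to 48 nt (7 shared), and 2 to 10 without 1 library. The 10 J calls became 4 with no replicate block, 6 in DESeq2, 0 by counts and 1 at gaps of 6 to 12 bases. They became 7 with D hits of under 5 bases in the gene proper counted as none, and 7 to 10 without 1 library. The V calls over time ranged from 0 to 1 without 1 pair. Of the 20 tracked members called, 17 came from the day -5 and day -4 libraries of Amazo, whose repertoires differed (Morisita-Horn overlap 0.00307). There 100% of all such clonotypes were called. The 20 became 6 at 0.5% or more and 39 at no minimum fold, with 5 and 17 from that Amazo pair.

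Single genes turned direction by counts (TRBV3-2 -0.049, TRBV9 0.26, TRBJ1-2 -0.057, TRBJ2-2 -0.16) and at gaps of 6 to 12 bases (TRBJ1-1 -0.023, TRBJ1-5 -0.076, TRBJ1-6 -0.083, TRBJ2-1 0.40). Turns also occurred at reweighted lengths (TRBJ1-1 -0.14, TRBJ1-2 -0.33, TRBJ2-4 0.037) and at 39 to 48 nt (TRBJ1-2 -0.038, TRBJ2-4 0.025). TRBJ2-4 turned as well with D hits of under 5 bases in the gene proper counted as none (0.012) and when 1 library was left out (-0.070 to 0.032, the latter without Rocket). The restriction to gaps of 6 to 12 bases, the reweighting, the rule on D hits of under 5 bases and the share with 10 or more counts were chosen after seeing the data. The cause of these changes was not tested. Depth limits the baseline libraries most.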
